A study of Mus musculus with 6 samples.

Results

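The genes for 10 amino acid transport proteins of the plasma membrane were examined by gene name in the RNA sequencing table of mouse bone marrow-derived macrophages, and all 10 were found among its 55401 genes. They are Slc38a1, Slc38a2 and Slc1a5 for neutral amino acids, Slc7a5 and Slc7a8 for large neutral amino acids, Slc7a1, Slc7a2, Slc7a6 and Slc7a7 for cationic amino acids, and Slc3a2, the heavy chain with which 4 of these carriers pair. There were 3 Lamtor5 knockdown libraries and 3 wild type (WT) libraries, all from bone marrow cells induced with M-CSF, the macrophage growth factor. The series' design text writes the mutant mice as HBXIPΔLysM. HBXIP is another name of Lamtor5, a subunit of the Ragulator complex on the lysosome surface, and LysM is the Lyz2 promoter, which is used to drive Cre recombinase in myeloid cells. Strain, age and sex of the mice are not given in the labels, and they do not tell whether each library had its own animal. The p-values therefore cover the spread among these 6 libraries and no more, and that spread may be technical.

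Amino acids reach the cytosol through carriers of this kind. The SNAT carriers (Slc38a1, Slc38a2) take up glutamine and other small neutral amino acids with sodium, ASCT2 (Slc1a5) exchanges neutral amino acids, and the LAT carriers (Slc7a5, Slc7a8) exchange large neutral amino acids such as leucine. The CAT carriers (Slc7a1, Slc7a2) bring in arginine and lysine, and the y+L carriers (Slc7a6, Slc7a7) exchange cationic for neutral amino acids. Leucine and arginine are known signals for mTORC1, the growth kinase that Ragulator and the Rag GTPases bring to the lysosome, and several carrier genes are known targets of ATF4, the transcription factor of the amino acid shortage response.

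The libraries held 26.0 to 28.0 M read pairs (M, 1e6) and 75.8 to 83.2 M estimated counts. Lamtor5 stood at 25.5, 27.1 and 24.8 FPKM (fragments per kilobase and M) in the knockdown libraries, against 55.9, 54.5 and 56.2 FPKM in the WT libraries, so 46.5% of the WT level was left. Knockdown replicate 3 stood apart at Lyz2, with 73.6 FPKM against 10600 and 11400 FPKM in the other knockdown libraries and 22500 to 29400 FPKM in WT. All 8 macrophage markers were detected, and 5 of them fell and 1 rose, where edgeR called 11.3% of all genes tested. Among those that fell, Csf1r, the M-CSF receptor, was at 160 to 223 FPKM in the knockdown, against 347 to 541 FPKM in WT. The 1 that rose was Cd68, at 1270 to 1570 FPKM in the knockdown, against 930 to 971 FPKM in WT. Mertk also lay above WT in every knockdown library, at 214% of its WT mean, but was not called (edgeR adjusted p = 0.0922). Without knockdown replicates 1, 2 and 3 in turn, edgeR called 1, 2 and 3 of the 8 lower and 0, 1 and 1 higher. Without WT replicates 1, 2 and 3 it called 4, 0 and 4 lower and 2, 0 and 0 higher. Some markers of other blood cells also moved. The 9 mast cell, basophil and eosinophil markers summed to 18.7 to 22.2 FPKM in the knockdown, against 4.58 to 5.56 FPKM in WT. Of 8 tested, 3 rose (Kit, Prss34 and Prg2). Without knockdown replicates 1, 2 and 3 in turn, edgeR called 0, 1 and 4 of them higher. Without WT replicates 1, 2 and 3 it called 2, 0 and 0 higher. By group means the largest part of the sum was Kit, at 9.53 FPKM in the knockdown, against 2.11 FPKM in WT. Mcpt4 was listed at 0.0001, the entry for a count of 0, in all WT libraries and in 2 of the knockdown libraries. The 7 B cell markers summed to 14.4 to 32.2 FPKM in the knockdown, against 56.5 to 73.9 FPKM in WT. Most of that sum was Ighm, at a mean of 16.4 FPKM in the knockdown, against 56.1 FPKM in WT, the only 1 of the 7 called (lower); Jchain had a log2 fold change of 1.27 and was not called. In the erythroid and megakaryocyte list 1 of 6 tested genes rose, and in the neutrophil list 1 rose and 1 fell of 8. The summed T and NK cell markers came to 0.483 to 0.705 FPKM in the knockdown, against 0.0931 to 0.519 FPKM in WT, and the T cell gene Cd3g was listed at that entry in all 6. In the dendritic cell, fibroblast and osteoclast lists edgeR called 0 of 7, 6 and 4 tested genes (2, 1 and 1 at an unadjusted p under 0.05; DESeq2 called 1, 1 and 1). The part of these cells in the results below was not tested, and in bulk RNA fewer cells of a type and less RNA per cell cannot be told apart.

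Slc38a2 and Slc7a8 were lower in the knockdown, at 61.8% and 51.7% of their WT means, and no member was called higher. In edgeR's quasi-likelihood test over 18164 genes, 2 of the 10 members passed a Benjamini-Hochberg adjusted p of 0.05, against 11.3% of all genes tested (6.46% lower and 4.87% higher). At an unadjusted p under 0.05, 5 members were lower and 0 higher, where 5484 of the 18164 genes passed in either direction. DESeq2 called 4 members lower and 0 higher, against 21.2% of its genes in either direction and 11.8% lower. Of the 10 members 7 had a log2 fold change below 0, as had 48.5% of all genes tested. The 10 members had a median log2 fold change of -0.49, and all genes tested had a median of 0.02. In 3 members every knockdown library lay below every WT library and in none above, where 21.3% and 16.3% of all genes tested did so (37.6% in either direction). The number of member calls changed when single libraries were left out. Without WT replicate 1 there were 5 calls (Slc38a2, Slc1a5, Slc7a5, Slc7a8 and Slc7a1), all lower, against 12.3% of all genes tested in that fit (7.29% lower). Without each knockdown library in turn there was 1, Slc7a8. In these fits, without knockdown replicates 1, 2 and 3, edgeR called 377 of 19052, 1130 of 18840 and 781 of 18831 genes tested. DESeq2 called 2 members in each, and 2982, 3027 and 2679 genes in all. Without WT replicate 2 or WT replicate 3 there were 0 by edgeR, with 4 and 2 members at an unadjusted p under 0.05, 2 and 2 calls by DESeq2 and 0 and 0 by limma. In the whole table without WT replicate 3, edgeR called 625 of 19015 genes tested (4435 at an unadjusted p under 0.05). DESeq2 called 2654 genes there and limma 543. Without WT replicate 2 edgeR called 0 of 18979 genes tested (4065 at an unadjusted p under 0.05), so every edgeR call given here was lost in that fit. DESeq2 called 2240 genes without WT replicate 2 and limma 0.

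**Figure D1:**
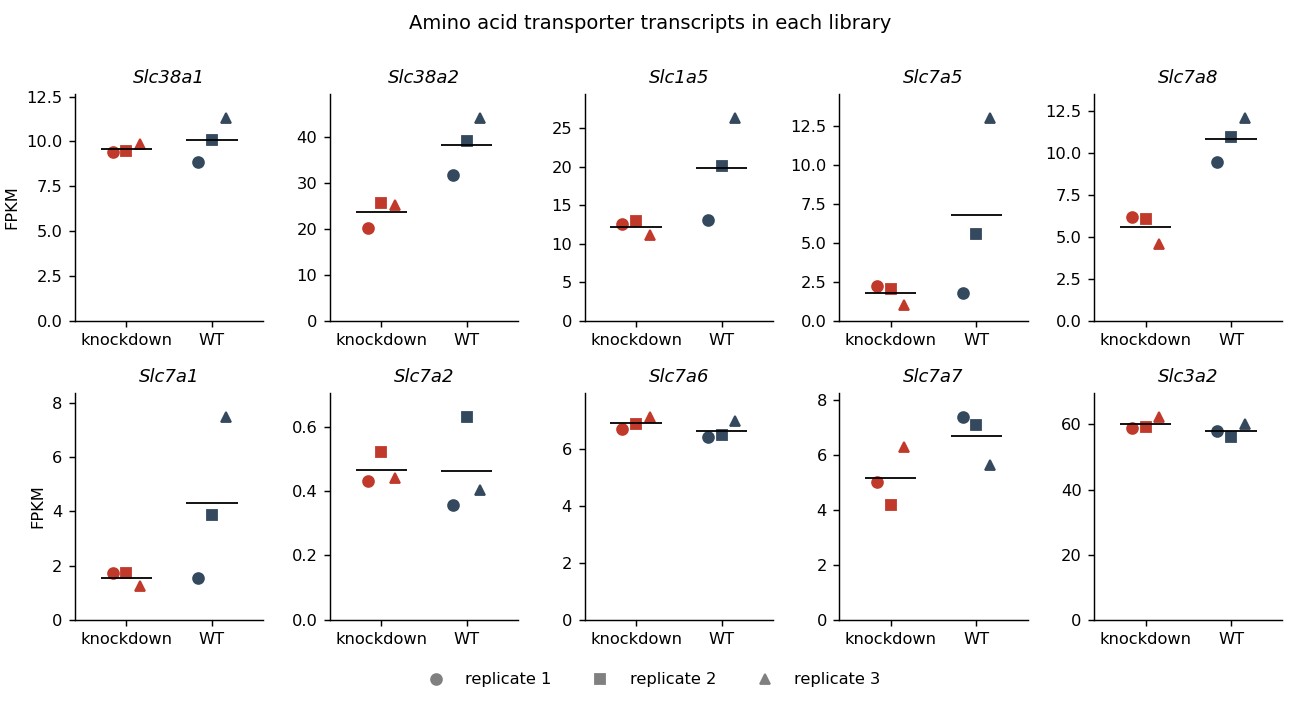
FPKM of each of the 10 transporter genes in the 3 knockdown libraries (left, red) and the 3 WT libraries (right, dark blue); the shape of a point marks its replicate and the black line is the group mean. Slc38a2, Slc1a5 and Slc7a8 do not overlap between the groups, while Slc7a5 and Slc7a1 spread from 1.78 to 13.0 and from 1.55 to 7.47 FPKM within WT.

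The starts of genes that differ in their behaviour here are shown for comparison: Slc38a2 and Slc7a8, which were called lower, Slc7a1, which varied within WT, and Slc3a2, which differed little. Each run is the 250 bases before the RefSeq start (GRCm38.p6), 5′ to 3′ on the gene's strand, and all 4 genes lie on the minus strand. The positions are chr15:96699729-96699978 for Slc38a2, chr14:54781887-54782136 for Slc7a8, chr5:148399905-148400154 for the first of 2 starts of Slc7a1 and chr19:8713898-8714147 for Slc3a2. Capitals mark the GC box GGGCGG in either orientation.
Slc38a2: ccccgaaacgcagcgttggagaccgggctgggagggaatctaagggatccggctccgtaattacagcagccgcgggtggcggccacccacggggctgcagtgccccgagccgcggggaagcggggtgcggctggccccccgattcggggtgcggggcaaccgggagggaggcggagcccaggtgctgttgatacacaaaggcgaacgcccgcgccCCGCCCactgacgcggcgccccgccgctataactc
Slc7a8: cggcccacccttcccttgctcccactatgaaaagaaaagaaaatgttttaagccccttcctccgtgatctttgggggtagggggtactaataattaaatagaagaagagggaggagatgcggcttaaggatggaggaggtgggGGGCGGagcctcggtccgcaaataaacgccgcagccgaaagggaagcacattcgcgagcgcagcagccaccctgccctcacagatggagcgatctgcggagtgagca
Slc7a1: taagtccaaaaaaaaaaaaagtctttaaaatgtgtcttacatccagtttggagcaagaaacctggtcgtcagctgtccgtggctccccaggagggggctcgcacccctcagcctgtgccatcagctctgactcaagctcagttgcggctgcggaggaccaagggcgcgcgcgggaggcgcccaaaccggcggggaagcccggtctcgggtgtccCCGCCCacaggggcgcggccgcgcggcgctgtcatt
Slc3a2: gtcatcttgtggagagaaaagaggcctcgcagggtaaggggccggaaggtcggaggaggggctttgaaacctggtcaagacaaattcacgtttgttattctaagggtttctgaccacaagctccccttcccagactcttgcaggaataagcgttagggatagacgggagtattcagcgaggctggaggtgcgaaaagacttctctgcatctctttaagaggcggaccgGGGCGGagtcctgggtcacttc
A GC box was found in all 4 windows, and in 32.7% of 32817 RefSeq windows of this length. Counted from the start, its first base lay at -35 in Slc38a2, -36 in Slc7a1, -107 in Slc7a8 and -22 in Slc3a2; the window of the other Slc7a1 start held none. Neither the core of the ATF4 response element (TGATGNAA) nor the E-box CACGTG nor CCAAT, each searched on both strands, was found in these 4 windows; their shares of all windows were 3.45%, 6.02% and 33.8%. RefSeq windows were at hand for 6 of the 10 members (also Slc7a6 and Slc7a7), and the ATF4 core was found in windows of 1 of them, Slc7a7, at -141 and -243 from 2 of its starts. In human SLC38A2 the known ATF4 element lies in an intron, which these windows do not cover.

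Among the neutral carriers, Slc38a2 fell and its neighbour Slc38a1 was not called. Slc38a2 (ENSMUSG00000022462, GRCm38 chromosome 15, 96687392 to 96699730, minus strand) encodes SNAT2, the carrier known to be induced when amino acids are short. It had 20.2, 25.7 and 25.2 FPKM in the knockdown libraries and 31.7, 39.2 and 44.2 FPKM in the WT libraries. The groups did not overlap, and the lowest WT library was replicate 1. The log2 fold change was -0.65 (SE 0.14, edgeR adjusted p = 0.0304, lower in 3 of 3 knockdown libraries). Leaving out knockdown replicates 1, 2 and 3 in turn gave adjusted p of 0.0847, 0.0708 and 0.065, leaving out WT replicates 1, 2 and 3 gave 0.0191, 0.111 and 0.0809, and the log2 fold change stayed between -0.76 and -0.54.

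Slc38a1 (ENSMUSG00000023169, chromosome 15, 96571418 to 96642913, minus strand) encodes SNAT1, and 44.5 kb lie between its start and the end of Slc38a2. It had 9.42, 9.47 and 9.88 FPKM in the knockdown libraries and 8.86, 10.1 and 11.3 FPKM in the WT libraries. The knockdown libraries lay within the WT range, and the log2 fold change was -0.02 (SE 0.096, edgeR adjusted p = 0.889). The ratio of Slc38a2 to Slc38a1 FPKM within a library, which no scaling between libraries can move, was 2.15, 2.72 and 2.55 in the knockdown libraries and 3.58, 3.87 and 3.90 in the WT libraries.

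Slc1a5 (ENSMUSG00000001918, chromosome 7, 16781340 to 16798274, plus strand), for the glutamine exchanger ASCT2, had 12.5, 13.0 and 11.1 FPKM in the knockdown libraries. The WT libraries held 13.1, 20.1 and 26.3 FPKM. The groups did not overlap, but WT replicate 1 lay next to the knockdown and the other WT libraries well above it. The log2 fold change of -0.65 equalled that of Slc38a2, with an SE of 0.22 and an edgeR adjusted p of 0.107. Without WT replicate 1 it was -0.87 (adjusted p = 0.0187), without WT replicate 3 it was -0.40 (adjusted p = 0.238), and DESeq2 called it at an adjusted p of 0.0284; over 14 other settings the adjusted p ran from 0.0187 to 0.58.

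Of the large neutral carriers, Slc7a8 gave the clearest difference of the 10 members and Slc7a5 the widest spread. Slc7a8 (ENSMUSG00000022180, chromosome 14, 54722209 to 54781946, minus strand) encodes the light chain LAT2. It had 6.21, 6.05 and 4.59 FPKM in the knockdown libraries and 9.5, 11 and 12.1 FPKM in the WT libraries. The groups were well apart, with a log2 fold change of -0.90 (SE 0.14, edgeR adjusted p = 0.016, lower in 3 of 3 knockdown libraries). The call was kept without WT replicate 1 and without each knockdown library. It was not made without WT replicate 2 (adjusted p = 0.0745) or WT replicate 3 (adjusted p = 0.05, not under the threshold before rounding).

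Slc7a5 (ENSMUSG00000040010, chromosome 8, 121881150 to 121907694, minus strand) encodes LAT1, the leucine exchanger of growing and activated cells; it overlaps the gene Galnt2l, which had a count of 0 in every library. It had 2.24, 2.06 and 0.995 FPKM in the knockdown libraries and 1.78, 5.59 and 13.0 FPKM in the WT libraries. WT replicate 1 lay inside the knockdown range, and WT replicate 3 held 7.31 times the FPKM of WT replicate 1. This within-WT ratio was larger than that of 99.3% of 11486 tested genes with a mean of at least 1 FPKM, whose median ratio was 1.22. The log2 fold change was -1.89, the largest decrease among the members, but its SE was 0.68 and its edgeR adjusted p was 0.117. It was -2.34 (adjusted p = 0.0323) without WT replicate 1 and -1.01 (adjusted p = 0.315) without WT replicate 3. The balance of LAT2 to LAT1 transcripts followed the same libraries: Slc7a8 FPKM was 2.77, 2.93 and 4.61 times that of Slc7a5 in the knockdown libraries and 5.33, 1.96 and 0.932 times in the WT libraries.

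None of the 4 cationic carriers passed edgeR's test, with 1 lower at an unadjusted p under 0.05 and 1 called lower by DESeq2, Slc7a1 in both. Slc7a1 (ENSMUSG00000041313, chromosome 5, 148327410 to 148399904, minus strand), for the arginine carrier CAT1, had 1.71, 1.73 and 1.23 FPKM in the knockdown libraries and 1.55, 3.87 and 7.47 FPKM in the WT libraries. As with Slc7a5, WT replicate 1 lay inside the knockdown range and the other WT libraries above it. The log2 fold change was -1.41 (SE 0.50, edgeR adjusted p = 0.115; DESeq2 adjusted p = 0.00708). Without WT replicate 1 it was -1.81 (edgeR adjusted p = 0.0213), and without WT replicate 3 it was -0.75 (adjusted p = 0.285).

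The other cationic carriers were not called, and their groups overlapped. Slc7a7 (ENSMUSG00000000958, chromosome 14, 54369442 to 54417780, minus strand), for the y+LAT1 light chain that is mutated in human lysinuric protein intolerance, had 5.0, 4.17 and 6.27 FPKM in the knockdown libraries and 7.36, 7.09 and 5.63 FPKM in the WT libraries. The groups overlapped through knockdown replicate 3 and WT replicate 3 (log2 fold change -0.33, SE 0.19, edgeR adjusted p = 0.307). Slc7a6 (ENSMUSG00000031904, chromosome 8, 106168857 to 106198706, plus strand), for y+LAT2, had 6.71, 6.87 and 7.12 FPKM in the knockdown libraries and 6.41, 6.48 and 7.0 FPKM in the WT libraries. That is a log2 fold change of 0.11 (SE 0.085, edgeR adjusted p = 0.451). Slc7a2 (ENSMUSG00000031596, chromosome 8, 40862396 to 40922308, plus strand) encodes CAT2, which is known from alternatively activated macrophages, and was the least abundant member, with 0.433, 0.522 and 0.440 FPKM in the knockdown libraries and 0.357, 0.630 and 0.403 FPKM in the WT libraries. Its values rest on 304 to 537 estimated counts per library, and its log2 fold change was 0.06 (SE 0.24, edgeR adjusted p = 0.895).

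The heavy chain was not called, at 103% of its WT mean, while its partners were lower in sum. Slc3a2 (ENSMUSG00000010095, chromosome 19, 8706882 to 8723369, minus strand) encodes 4F2hc (CD98), the glycoprotein that carries Slc7a5, Slc7a6, Slc7a7 and Slc7a8 to the cell surface. It had 58.9, 59.1 and 62.2 FPKM in the knockdown libraries and 58.0, 56.0 and 60.1 FPKM in the WT libraries, with a log2 fold change of 0.10 (SE 0.073, edgeR adjusted p = 0.421). The 4 light chains together came to 0.342, 0.324 and 0.305 of the Slc3a2 FPKM in the knockdown libraries and to 0.432, 0.538 and 0.629 in the WT libraries. These ratios did not overlap; they are given without a test, since the genes were chosen with earlier results known. Slc7a11, a further light chain outside the 10, had 13.6, 19.3 and 18.1 FPKM in the knockdown libraries and 17.6, 13.8 and 12.6 FPKM in the WT libraries and was not called (edgeR adjusted p = 0.371).

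**Figure D2:**
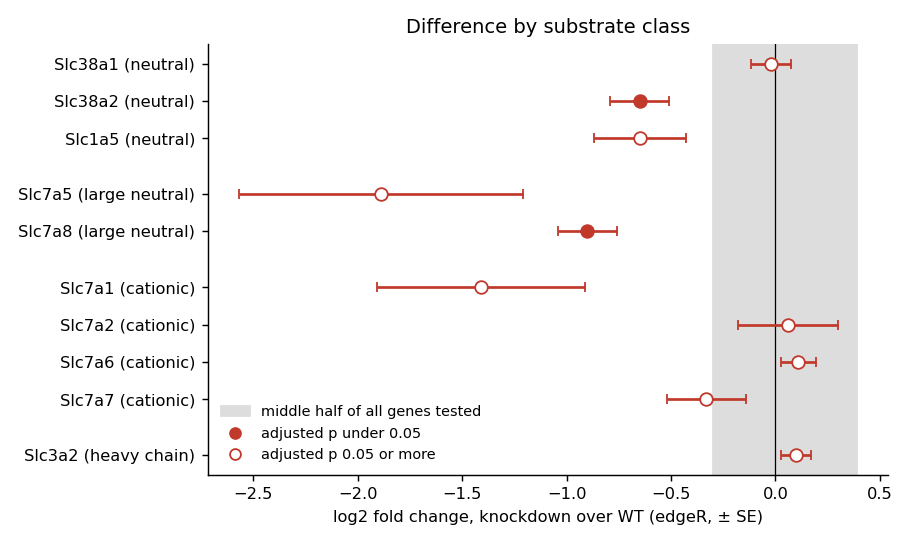
Log2 fold change (knockdown over WT) with its standard error for each member, grouped by substrate class; filled points passed an adjusted p of 0.05 and the grey band holds the central 50% of all genes tested (-0.30 to 0.39). Slc38a2 at -0.65 and Slc7a8 at -0.90 are filled, and Slc7a5 and Slc7a1 lie further out with wider errors.

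Summed by substrate class, the FPKM of all 3 carrier classes was lower in every knockdown library than in any WT library; the sums are a description of chosen genes and carry no test. The neutral carriers summed to 45.5 ± 3.09 FPKM in the knockdown, against 68.3 ± 14.1 FPKM in WT (SD over 3 libraries each), or 66.6% of WT. The large neutral carriers summed to 7.39 ± 1.57 FPKM in the knockdown, against 17.7 ± 7.02 FPKM in WT, or 41.8%. The cationic carriers summed to 14.1 ± 0.899 FPKM in the knockdown, against 18.1 ± 2.41 FPKM in WT, or 77.8%. Here the closest libraries of the groups were at 15.1 FPKM (knockdown replicate 3) and 15.7 FPKM (WT replicate 1). The sums do not stand for each member. In the cationic class Slc7a1 and Slc7a7 were at 36.2% and 76.9% of their WT means, neither called by edgeR, and Slc7a2 and Slc7a6 at 100% and 104%. In the neutral class Slc38a1 was at 94.9%. As a share of the 10 members' FPKM, the heavy chain made up 47.3% ± 1.23 in the knockdown and 36.3% ± 5.02 in WT (SD, n = 3 each). The large neutral carriers made up 5.83% ± 1.33 in the knockdown and 10.6% ± 2.66 in WT, the neutral carriers 35.8% ± 1.65 in the knockdown and 41.9% ± 2.75 in WT, and the cationic carriers 11.1% ± 0.681 in the knockdown and 11.2% ± 0.215 in WT (SD, n = 3 each).

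**Figure D3:**
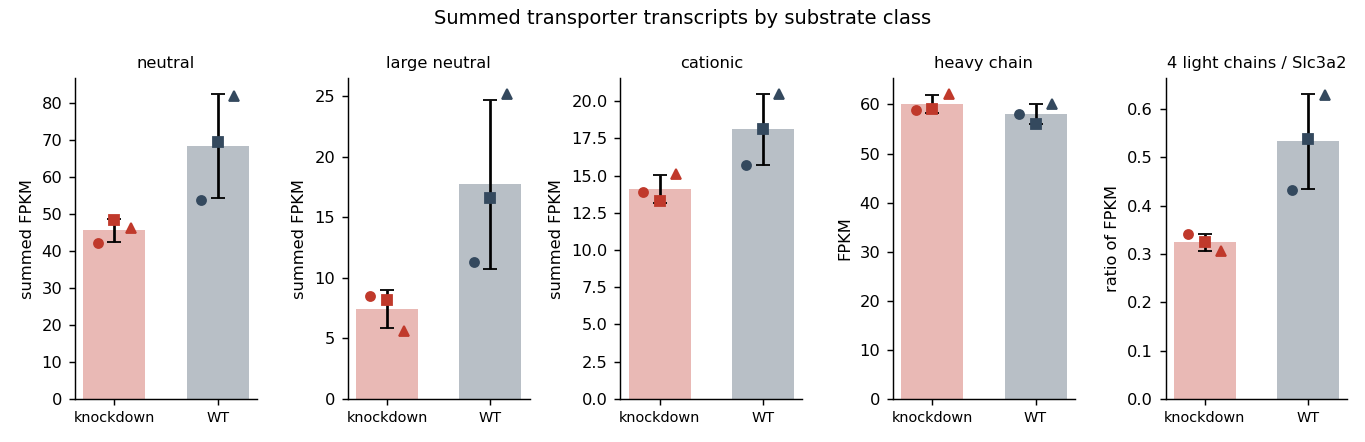
Summed FPKM of each substrate class, FPKM of the heavy chain, and the ratio of the 4 light chains to the heavy chain; bars are means of 3 libraries with the SD, points are libraries, knockdown left (red) and WT right (blue). The class sums and the ratio are lower in the knockdown without overlap, and the heavy chain stands at 60.0 FPKM in the knockdown, against 58.1 FPKM in WT.

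The order of the members by level was similar in both groups. Slc3a2, Slc38a2, Slc1a5 and Slc7a2 held ranks 1, 2, 3 and 10 in both. In the knockdown the ranges of neighbours overlapped between Slc7a8 and Slc7a7 and between Slc7a5 and Slc7a1. In WT the neighbours from Slc7a8 through Slc38a1, Slc7a5, Slc7a7 and Slc7a6 down to Slc7a1 all overlapped, so their order within WT was not separated by the spread. Slc7a8 was rank 6 in the knockdown and rank 4 in WT, Slc7a5 rank 8 in the knockdown and rank 6 in WT, and Slc7a6 rank 5 in the knockdown and rank 8 in WT. By distance between centred log2(FPKM + 1) profiles over the 6 libraries, the genes most like Slc7a8 among 6607 others were Ehd4 (0.124), Parp12 (0.127) and Actb (0.149), and the nearest of the 6 other members compared was Slc38a2 (0.532). Genes with a mean under 5 FPKM, among them Slc7a5, Slc7a1 and Slc7a2, were not compared.

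The spread within WT ran through the same libraries in most members. WT replicate 1 was the lowest and WT replicate 3 the highest WT library for 7 of the 10 members, as for 32.5% of 11486 tested genes with a mean of at least 1 FPKM, for 17 of 17 cell division genes and for 15 of 24 genes of the ATF4 list at that level. Asns, the asparagine synthetase gene, had 8.18, 6.08 and 4.36 FPKM in the knockdown libraries and 6.96, 19.3 and 35.4 FPKM in the WT libraries, with WT replicate 1 inside the knockdown range as for Slc7a5 and Slc7a1 (edgeR adjusted p = 0.0947). Chac1, a glutathione-degrading enzyme gene of the same stress response, had 0.971, 0.377 and 0.353 FPKM in the knockdown libraries and 0.543, 1.81 and 4.98 FPKM in the WT libraries. The 17 cell division genes summed to 70.9 to 129 FPKM in the knockdown, against 231 to 565 FPKM in WT, and 15 of them fell; the count was 17 without WT replicate 1, 8 without WT replicate 3 and 4, 13 and 9 without knockdown replicates 1, 2 and 3. Their part in the carriers' values was not tested.

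**Figure D4:**
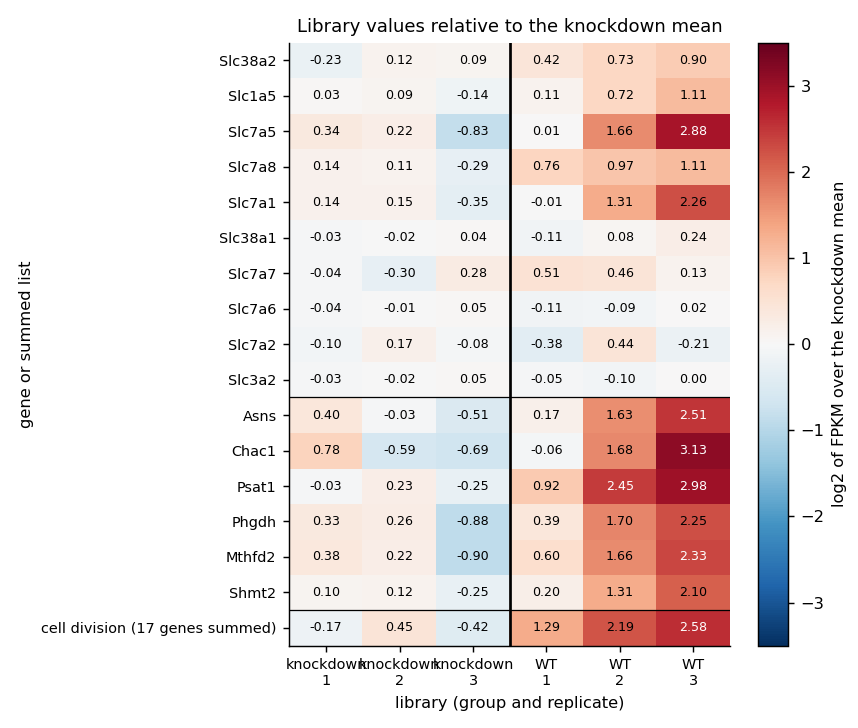
Log2 of each library's FPKM over the knockdown mean, for the 10 members (top), 6 amino acid synthesis and stress genes (middle) and 17 summed cell division genes (bottom); columns are libraries, knockdown left of the line and WT right. Slc7a5, Slc7a1, Asns and Chac1 are at -0.06 to 0.17 in WT replicate 1 and at 2.26 to 3.13 in WT replicate 3, while Slc7a8 is at 0.76 to 1.11 in all WT libraries.

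Other genes of amino acid supply moved in both directions. Of 33 further surface carriers, 12 were expressed enough to be tested, and 2 fell and none rose (4 lower and 0 higher at an unadjusted p under 0.05; DESeq2 called 3 lower and 0 higher). Of all 18164 genes tested, edgeR called 6.46% lower and 4.87% higher, and 5484 had an unadjusted p under 0.05. Slc36a2, a proton-coupled carrier of small neutral amino acids, averaged 2.44 ± 0.113 FPKM in the knockdown, against 5.03 ± 0.536 FPKM in WT (log2 fold change -1.0, SE 0.14, edgeR adjusted p = 0.0127). Slc16a10, the aromatic amino acid carrier TAT1, averaged 6.39 ± 0.448 FPKM in the knockdown, against 10.1 ± 0.516 FPKM in WT (-0.61, SE 0.084, adjusted p = 0.0129). Both calls were lost without knockdown replicate 1 (as without WT replicate 2) and kept with each of the other 4 libraries left out. The median log2 fold change of the 12 was -0.27, with a range from -2.2 to 1.92. Only 6 of the 12 had a mean of at least 1 FPKM, so the median rests in part on genes at low levels.

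Of 9 tested genes for amino acid carriers of the lysosome and related organelles, edgeR called 3 higher and 0 lower. Their median log2 fold change was 0.15. At an unadjusted p under 0.05, 4 were higher and 1 lower. DESeq2 called 4 higher and 0 lower, and limma 3 higher and 1 lower. Over all genes tested, edgeR called 4.87% higher and 6.46% lower. Mfsd12, a cysteine carrier, had 109, 102 and 122 FPKM in the knockdown libraries and 71.5, 73.1 and 76.1 FPKM in the WT libraries (log2 fold change 0.64, SE 0.096, edgeR adjusted p = 0.0149). Ctns, the cystine exporter mutated in human cystinosis, averaged 25.5 ± 3.51 FPKM in the knockdown, against 16.8 ± 0.614 FPKM in WT (0.65, SE 0.11, adjusted p = 0.0199). Slc15a3, a histidine and peptide carrier, averaged 33.2 ± 4.84 FPKM in the knockdown, against 17.6 ± 2.61 FPKM in WT (0.97, SE 0.17, adjusted p = 0.0196). Slc38a9, the arginine sensor of the lysosome, was at 1.93 ± 0.150 FPKM in the knockdown, against 1.80 ± 0.173 FPKM in WT (adjusted p = 0.43). All 3 calls were lost without knockdown replicate 1, those of Ctns and Slc15a3 also without WT replicate 3, and that of Slc15a3 without knockdown replicate 3.

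The enzymes that use the imported amino acids were called in 1 of 3 lists, where 11.3% of all genes tested were called. Of 11 genes of arginine metabolism, edgeR called 0 (3 lower and 0 higher at an unadjusted p under 0.05; 0 by DESeq2 and 0 by limma). Of 10 genes of glutamine and glutamate metabolism, Got1 (log2 fold change 0.44) and Gpt (0.85), both aminotransferases, rose and the glutamate dehydrogenase gene Glud1 (-0.38) fell (3 lower and 2 higher at an unadjusted p under 0.05; DESeq2 called 2 lower and 2 higher). Of 9 genes of branched-chain amino acid breakdown edgeR called 0 (1 lower and 0 higher at an unadjusted p under 0.05; DESeq2 called 1 lower). Of 26 genes of the ATF4 list, Nupr1 (-1.14), a stress-induced chromatin protein, and the serine synthesis gene Psat1 (-2.29) fell, while Eif2ak4 (0.65), which encodes the amino acid shortage kinase GCN2, and Atf3 (0.79) rose. At an unadjusted p under 0.05, 11 genes of this list were lower and 2 higher, and DESeq2 called 9 lower and 2 higher. The edgeR adjusted p of these 7 genes ran from 0.017 to 0.0324. Atf4 itself averaged 41.2 ± 15.2 FPKM in the knockdown, against 62.0 ± 12.0 FPKM in WT (log2 fold change -0.53, edgeR adjusted p = 0.254). The calls of these 7 genes were lost without knockdown replicate 1 and without knockdown replicate 3, and all but that of Atf3 without WT replicate 3. Those of Atf3 and Psat1 were also lost without knockdown replicate 2, and those of Atf3 and Gpt without WT replicate 1. Without WT replicate 1 edgeR called 8 lower and 1 higher in the ATF4 list.

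**Figure D5:**
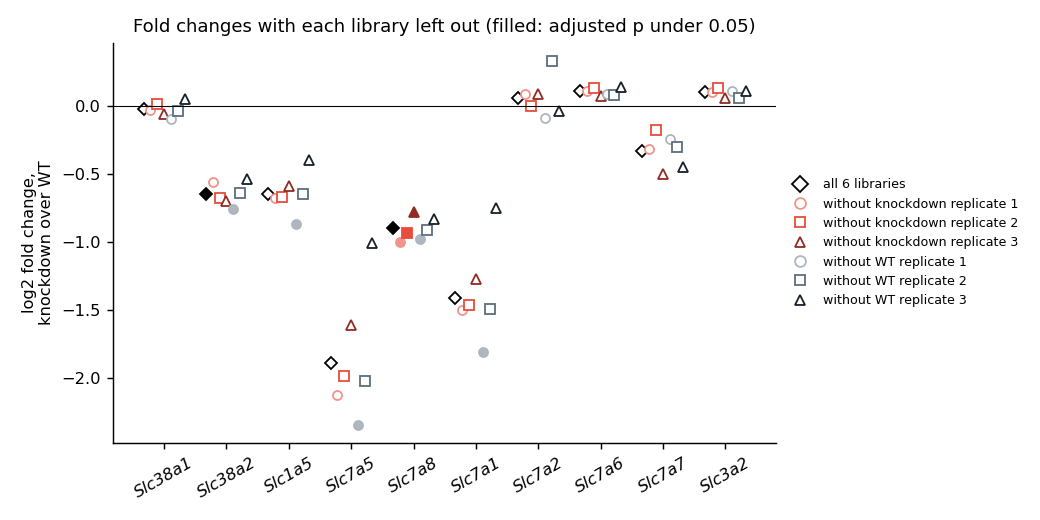
Log2 fold change (knockdown over WT, edgeR) of each member with all 6 libraries and with each library left out in turn; filled symbols have an adjusted p under 0.05. Slc7a8 stays between -1.0 and -0.78, whereas Slc7a5 runs from -2.34 without WT replicate 1 to -1.01 without WT replicate 3.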

How the data were processed

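RNA was sequenced in 6 macrophage libraries that came from a SMARTER mRNA-Seq kit, per the labels' protocols. Reads were trimmed with cutadapt 1.9 (minimum length 100), per the file headers. The submitters' processing notes name GRCm38 (mm10) as the build. The sources used here name no aligner or counting program and do not state its use of strand. The authors deposited estimated counts and FPKM per gene; the counts are whole but sum to 2.95 to 3.01 per read pair kept, so they are no tally of reads, and no interval for counting error was made. All 10 members had the same coordinates in GENCODE M21.

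edgeR 4.0.16 (R 4.3.3) was run on the deposited estimated counts with filterByExpr (minimum count 10), TMM scaling and a quasi-likelihood test with group as the only term, with Benjamini-Hochberg adjustment over all genes tested; the SE of a log2 fold change is its size over the square root of F. FPKM served for levels, and log2(FPKM + 1) for limma 3.58.1; DESeq2 1.42.0 was a further alternative. The fits were also run on counts simulated from the means and dispersions of these libraries. That run gives no measure of their error on the deposited estimated counts. The named genes were Lamtor5, Lyz2, all members and the 3 genes nearest to the member with the smallest p. From the carrier, enzyme and ATF4 lists came genes past the threshold with the smallest p (up to 4 a list, 8 for surface carriers). This rule was not applied to the marker and cell division lists, where not all called genes were named. Csf1r, Mertk, Slc7a11, Slc38a9, Slc36a1, Asns, Chac1, Atf4, Mcpt4, Cd3g, Jchain and the genes plotted by library were added after their values were seen. The members and lists were chosen with earlier results of these data known.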

Additional observations from a re-analysis of the deposited data

How the results depend on the processing

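The number of members past the threshold (2) was the same with RLE scaling, counts divided by 3, and limma on log2(FPKM + 1) or log2(FPKM + 0.1). It was 4 with DESeq2, 1 without a filter on low counts (Slc38a2 at an adjusted p of 0.0517) and 0 in limma without a filter on low values (2 members at an unadjusted p under 0.05), where 55401 genes entered the adjustment. With 1 library left out it ran from 0 to 5. The count over all genes was 2058, and 3641 with DESeq2, 1205 without a filter, 15 in limma without a filter, and 0 to 2334 with 1 library left out. The correlations of same-numbered deviations from the group means were 0.046, 0.036 and -0.011. Those of differently numbered libraries ran from -0.069 to 0.034. No strong shared effect of the replicate number was seen, but such values cannot tell whether the libraries were paired. With the replicate number as a block, 1 member (Slc38a2, adjusted p = 0.0416; Slc7a8 0.0587) and 728 genes were called. No member call changed sign in any of these settings. Under TMM rescaling, medians and left-out libraries, the log2 ratios of the summed FPKM kept their sign in all 4 classes. They ran from -0.73 to -0.44 for neutral and from -1.50 to -0.92 for large neutral carriers. For cationic carriers they ran from -0.46 to -0.26, and for the heavy chain from 0.02 to 0.09. Slc7a2 was under the FPKM filter of limma.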

Other observations

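Slc36a1, which encodes a proton-coupled amino acid carrier of the lysosome, fell into separate levels that did not follow the groups. It had 21.6, 5.47 and 20.1 FPKM in the knockdown libraries and 20.3, 20.7 and 5.43 FPKM in the WT libraries, so knockdown replicate 2 and WT replicate 3 were low and the other 4 libraries were close to each other. Its log2 fold change was 0.08 (SE 0.64, edgeR adjusted p = 0.947). The gene was singled out after its values were seen.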
